A study of Mus musculus with 2 samples.

Results

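Hypoxic cancer cells were studied in Lewis lung carcinoma (LLC) tumors, which grow from a transplanted mouse lung cancer cell line, by single-cell RNA sequencing of 3′ transcript ends. A cancer cell was a barcode with at least 5000 UMIs (unique molecular identifiers, each counting 1 captured RNA molecule), a mitochondrial share under 10%, at least 1000 CPM (the UMIs of a gene scaled to a common total per barcode) summed over the cancer genes Rhox5, Krt8, Krt18 and Hmga2, and less than 300 CPM summed over the immune genes Tyrobp, Fcer1g and Ctss. The hypoxic cells were the top 10% of the cancer cells of both libraries, ranked together by the CPM sum of Adm, Ndrg1, Slc2a1, Hilpda and Ero1l. They numbered 1421 of 14210 cancer cells, out of 40638 barcodes in all. The cells were therefore chosen on measured transcript levels, no oxygen measurement entered, and their contrast with the other 12789 cancer cells is a description and supports nothing by itself.

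The study asked how soluble guanylate cyclase (sGC), the nitric oxide receptor that makes cyclic GMP, acts through pericytes on the tumor. The control library (sGC-Ctr) came from C57BL/6 mice of the genotype Gucy1b1 flox/flox, and the other library (sGC-∆PC) from mice labelled Cspg4-CreERT2::Gucyc1b1 flox/flox, so that both groups carried the floxed gene for the β1 subunit of sGC. In both groups tamoxifen was given in 5 doses at 4 weeks of age, LLC cells were inoculated under the skin at 8 weeks, and tumors were taken 2 weeks later. Cspg4, which is active in pericytes, drives the tamoxifen-inducible Cre, and the inoculated cancer cells carried neither allele. Cells of tumors from 3 mice were pooled into each library, so there is 1 library per condition and no replicate. No test between conditions was possible, and the intervals given are 95% intervals that cover counting error only.

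Cells short of oxygen stabilize hypoxia-inducible factors (HIFs), which bind hypoxia response elements in DNA and raise the transcripts for glucose uptake, glycolysis, vessel growth and pH control. Under normal oxygen the prolyl hydroxylases of the Egln family mark HIF for destruction through Vhl, and some of these brakes are themselves HIF targets. In solid tumors, cells far from perfused vessels are known to run this program, often with slow division.

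The libraries stood apart in depth before any gene was compared. The sGC-Ctr library held 487859656 UMIs in 15007 barcodes, with a median of 23337 per barcode, and the sGC-∆PC library held 436352742 UMIs in 25631 barcodes, with a median of 8019. After the gates, sGC-Ctr had 6106 cancer cells and sGC-∆PC had 8104. The immune gate removed 378 and 2870 barcodes that had passed the cancer gate. The cancer cells of the libraries shared 18 barcode sequences, and the hypoxic cells shared none.

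The hypoxic cells made up 9.71% (Clopper-Pearson interval 8.98 to 10.5%) of the sGC-Ctr cancer cells, that is 593 cells, and 10.2% (9.57 to 10.9%) of the sGC-∆PC cancer cells, that is 828 cells. These intervals overlap, and the order of the libraries turned for the top 5% of cells (5.45% and 4.65%), with a mitochondrial share under 5% (10.5% and 9.51%) and with the score as a mean of log2 CPM (10.1% and 9.90%). For the top 20% of cells the order held and the shares lay further apart, at 17.9% of sGC-Ctr and 21.6% of sGC-∆PC. Over all cancer cells the median score was 257 CPM in sGC-Ctr and 333 CPM in sGC-∆PC. The score had no gap at the limit of 1111 CPM. The lowest chosen cell had a score of 1111.23 CPM and the highest cell outside had 1111.11 CPM, with 183 hypoxic cells within 10% above the limit and 219 others within 10% below it. The median score was 1897 CPM (quartiles 1424 to 3110) in the hypoxic cells of sGC-Ctr and 1653 CPM (1286 to 2580) in those of sGC-∆PC. It was 233 and 301 CPM in the other cancer cells.

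**Figure D1:**
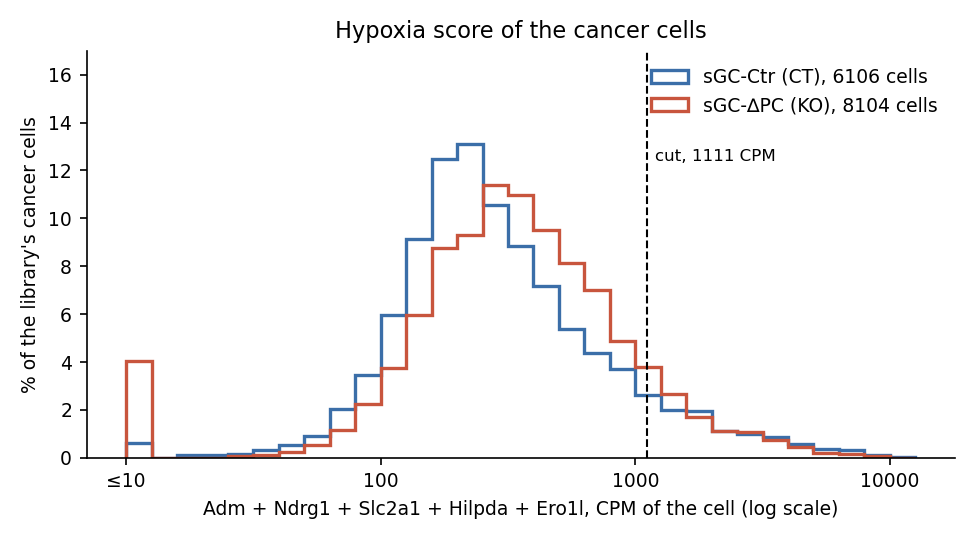
Distribution of the 5-gene score (CPM, log axis) over the cancer cells of each library, with the limit for the hypoxic cells as a dashed line and cells at or below 10 CPM gathered in the leftmost bin. The score falls off without a gap, and the limit of 1111 CPM lies in the upper tail of both libraries, far above the medians of the other cells at 233 and 301 CPM.

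In depth the hypoxic cells resembled the other cancer cells of their own library, while the libraries differed from each other. Their median was 52348 UMIs in sGC-Ctr, against 52938 in the other cancer cells, and 22626 against 20856.5 in sGC-∆PC. Thinned to 5000 UMIs, the hypoxic cells had a median of 1598 detected genes against 1712 in sGC-Ctr, and of 1631 against 1687 in sGC-∆PC. Their mitochondrial share was 4.05% against 4.80% in sGC-Ctr and 4.31% against 5.13% in sGC-∆PC. The 4 genes of the cancer gate stayed at a median of 1798 CPM in sGC-Ctr and 1671 CPM in sGC-∆PC, close to the 1727 and 1705 CPM of the other cells. Every cell had to reach 1000 CPM of these genes, so the closeness is partly set by the gate. Krt19, another simple keratin that the gate did not use, was at 14.4 CPM against 4.28 CPM in sGC-Ctr and 12.8 against 3.93 CPM in sGC-∆PC, while Epcam was near 0 in all sets.

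The 5 genes of the score have separate roles. Adm encodes adrenomedullin, a peptide that widens vessels and acts on endothelium. Its level, from UMIs summed over the cells of each set, was 710 CPM (Poisson interval 701 to 719) in the hypoxic cells of sGC-Ctr against 73.8 CPM in the others, and 652 against 84.8 CPM in sGC-∆PC. Slc2a1, the glucose carrier of the plasma membrane, was at 454 against 79.3 CPM and at 388 against 87.7 CPM. Ero1l, an oxidase that helps form disulfide bonds in the endoplasmic reticulum, was at 594 against 75.3 CPM and at 571 against 91.2 CPM. Ndrg1, a stress-responsive gene of the Ndrg family, was at 354 against 39.3 CPM and at 309 against 44.7 CPM. Hilpda, a lipid droplet protein that restrains lipolysis, was at 309 against 51.3 CPM and at 275 against 57.5 CPM. These differences were fixed by the choice of cells, and they only say how far apart the sets lie.

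The makeup of the score is a description, since the cells were ranked on these genes. Adm gave the most UMIs of the 5 in 48.4% of the hypoxic cells of sGC-Ctr and in 48.3% of those of sGC-∆PC, and Ero1l in 30.4% and 31.5%. All 5 transcripts were found in 97.5% and 84.4% of the hypoxic cells, against 45.9% and 30.1% of the other cancer cells. With every cell thinned to 5000 UMIs these shares were 35.4% and 31.3% against 0.453% and 0.563%, and the libraries lay closer together at equal depth. The 5 genes were given together as 1 marker set, so leaving 1 out describes how they go together and tests nothing. When cells were chosen on the other 4 genes, the gene left out was higher in the chosen cells. Its log2 ratio was 3.09 in sGC-Ctr and 2.70 in sGC-∆PC for Adm, 2.78 and 2.46 for Ero1l, and 2.43 and 2.02 for Slc2a1, the lowest of the 5. Leaving out Adm from the score kept 88.8% of the hypoxic cells, and leaving out Hilpda kept 94.6%.

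Promoter windows are shown for 4 genes of the score, for Bnip3, a HIF target, and for Mt1, one of the 10 leading genes named below. Each holds the 250 bases before a RefSeq transcript start in the mouse build GRCm38.p6, 5′ to 3′ on the strand of the gene. The first 5 were searched on both strands for the letters ACGTG or GCGTG, the core of hypoxia response elements, and Mt1 for TGCACNC or TGCGCNC, the core of metal response elements. Matches are in capitals, and CACGT and CACGC are the same motifs read on the other strand, so that CACGTG holds overlapping matches on both strands. Of all 32851 windows in the table, 38.6% held ACGTG or GCGTG and 21.4% held TGCACNC or TGCGCNC. A match is a run of letters and not a shown binding site.
Adm, chr7:110627407-110627656, plus strand: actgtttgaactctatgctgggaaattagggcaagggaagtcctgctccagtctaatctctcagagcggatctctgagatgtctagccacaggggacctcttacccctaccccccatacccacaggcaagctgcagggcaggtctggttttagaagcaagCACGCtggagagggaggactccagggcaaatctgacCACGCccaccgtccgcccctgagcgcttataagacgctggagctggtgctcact
Slc2a1, chr4:119108495-119108744, plus strand: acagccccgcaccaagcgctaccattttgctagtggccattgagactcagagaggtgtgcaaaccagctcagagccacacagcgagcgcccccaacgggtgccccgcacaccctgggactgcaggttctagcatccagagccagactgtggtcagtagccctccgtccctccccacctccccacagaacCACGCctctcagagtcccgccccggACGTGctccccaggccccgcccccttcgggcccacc
Hilpda, second listed start, chr6:29272376-29272625, plus strand: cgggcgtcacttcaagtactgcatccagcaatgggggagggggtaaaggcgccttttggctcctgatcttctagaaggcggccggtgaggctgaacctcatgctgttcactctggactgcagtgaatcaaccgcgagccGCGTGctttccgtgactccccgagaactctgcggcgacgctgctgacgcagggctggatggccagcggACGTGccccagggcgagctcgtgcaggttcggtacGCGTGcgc
Ero1l, listed as Ero1a, chr14:45318573-45318822, minus strand: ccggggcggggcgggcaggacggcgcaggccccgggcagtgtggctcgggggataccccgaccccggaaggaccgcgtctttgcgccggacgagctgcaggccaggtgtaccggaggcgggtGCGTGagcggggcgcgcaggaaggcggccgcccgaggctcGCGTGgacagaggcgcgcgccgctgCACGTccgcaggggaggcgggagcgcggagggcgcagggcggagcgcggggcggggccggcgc
Bnip3, chr7:138909507-138909756, minus strand: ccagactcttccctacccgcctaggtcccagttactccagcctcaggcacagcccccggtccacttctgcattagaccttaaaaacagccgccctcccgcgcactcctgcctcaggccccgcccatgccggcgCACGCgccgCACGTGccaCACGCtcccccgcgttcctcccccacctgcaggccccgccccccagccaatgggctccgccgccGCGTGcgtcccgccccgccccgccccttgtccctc
Mt1, chr8:94178839-94179088, plus strand: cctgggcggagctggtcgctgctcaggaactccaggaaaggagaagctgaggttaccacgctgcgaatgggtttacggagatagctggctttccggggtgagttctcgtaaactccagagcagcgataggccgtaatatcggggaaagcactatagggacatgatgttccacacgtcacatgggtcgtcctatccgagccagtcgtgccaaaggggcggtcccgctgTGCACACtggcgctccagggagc

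The Adm and Slc2a1 windows each held 2 matches, those of Hilpda and Ero1l 3 each, and that of Bnip3 5. The first listed start of Hilpda, whose window overlaps the one shown, had 0 matches in its own 250 bases. The Mt1 window held 1 match to the metal motif, that of Mt2 held 3 and that of the zinc exporter Slc30a1 held 1. The choice of Bnip3 was made with its matches known, and it had the most of the windows searched. Of other genes searched for ACGTG or GCGTG, Ankrd37 had 4 matches, P4ha2 3, Car9 and Ptgs2 1 each, the listed starts of Pgf 1 and 0, and those of Vegfa 0 and 2.

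Across the transcriptome, 12736 genes outside the score, the cancer gate and the immune gate had at least 100 UMIs over the cancer cells of each library. Of these, 152 (1.19%) were at least 2-fold higher and 89 (0.699%) at least 2-fold lower in the hypoxic cells of both libraries. The median log2 ratio over all genes tested was -0.20 in sGC-Ctr and -0.16 in sGC-∆PC. With ratios centered on that median, 222 genes were higher and 35 lower. Both libraries put 11074 of the 12736 genes on the same side of 0. The higher genes were well counted, with a median of 900 UMIs in the hypoxic cells, whereas the lower genes had a median of 29. Among the 152 higher genes the ratio was larger in sGC-Ctr for 108. In that library the median scores of the hypoxic and other cells also lay further apart.

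The 10 named genes with the largest ratios, ranked by the ratio nearer 0 of both libraries, were Nos2, Csf3, Pgf, Ciart, Ptgs2, Mt2, Ackr3, Mt1, Car9 and Hmox1. Nos2, the inducible nitric oxide synthase, was at 19.97 CPM (18.5 to 21.5) in the hypoxic cells and 0.545 CPM (0.468 to 0.632) in the others of sGC-Ctr, a log2 ratio of 5.20 (4.95 to 5.44). In sGC-∆PC it was at 38.8 against 2.03 CPM, a log2 ratio of 4.26 (4.10 to 4.41). Csf3, the growth factor of granulocytes, was at 12.3 against 0.668 CPM in sGC-Ctr and 9.20 against 0.798 CPM in sGC-∆PC. Of the 420 Csf3 UMIs in the hypoxic cells of sGC-Ctr, 103 lay in 1 cell, and its log2 ratio there was 4.20. Over the alternatives it ranged from 2.93, when cells were chosen by a score at 5000 UMIs, to 7.66, without the 1% of cells richest in it. Only 1.14% of the other cancer cells of sGC-Ctr held Csf3, so that omission removed most of them and the 7.66 follows largely from it. Nos2 and Csf3 were both found in few cells. A Nos2 UMI was seen in 16.2% (13.3 to 19.4%) of the hypoxic cells of sGC-Ctr and 23.9% (21.0 to 27.0%) of those of sGC-∆PC, and Csf3 in 6.07% and 8.33%. At 5000 UMIs per cell the shares for Nos2 were 5.73% and 12.0%, against 0.308% and 0.893% of the other cancer cells. In T cells, gated as barcodes with at least 2 UMIs of Cd3d, Cd3e and Cd3g, Nos2 was found in 0 of 33 cells of sGC-Ctr (median depth 3016 UMIs) and 0 of 25 of sGC-∆PC (3639 UMIs), which by a limit of 3 counts of the total allows shares of up to 9.09% and 12.0%.

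Among the remaining leaders, Pgf, placental growth factor of the VEGF family, was at 34.0 against 2.52 CPM in sGC-Ctr and at 30.7 against 3.63 CPM in sGC-∆PC, with log2 ratios of 3.76 (3.63 to 3.89) and 3.08 (2.94 to 3.21). Ptgs2, the inducible cyclooxygenase of prostaglandin synthesis, was at 120 against 15.1 CPM and at 151 against 22.9 CPM. Mt1 and Mt2, metallothioneins that bind zinc and other metals, were widespread and abundant. Mt1 was at 3315 against 433 CPM in sGC-Ctr and at 3050 against 538 CPM in sGC-∆PC, and Mt2 at 1171 against 134 CPM and at 1104 against 182 CPM. A Mt1 UMI was seen in 99.7% and 99.8% of the hypoxic cells, and in 94.8% and 97.3% at 5000 UMIs, against 39.4% and 48.0% of the T cells at their lower depth. Hmox1, which degrades heme, was at 65.0 against 9.67 CPM and at 76.9 against 15.6 CPM. Of its UMIs in the hypoxic cells, 167 of 2221 in sGC-Ctr and 293 of 2088 in sGC-∆PC lay in 1 cell. Car9, a carbonic anhydrase of the cell surface and a classic HIF target, was at 11.8 against 1.53 CPM and at 10.8 against 1.95 CPM. Ciart, a repressor of the circadian clock, and Ackr3, a scavenging chemokine receptor, had log2 ratios of 2.75 and 2.74 in sGC-Ctr and of 2.85 and 2.51 in sGC-∆PC. The ranking took genes higher in both libraries, so that all 10 were is no result. The ratio was larger in sGC-Ctr for each of them but Ciart. The score that chose the cells also lay further apart there. Its medians were 1897 against 233 CPM in sGC-Ctr and 1653 against 301 CPM in sGC-∆PC. The part of this in the ratios was not tested.

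**Figure D2:**
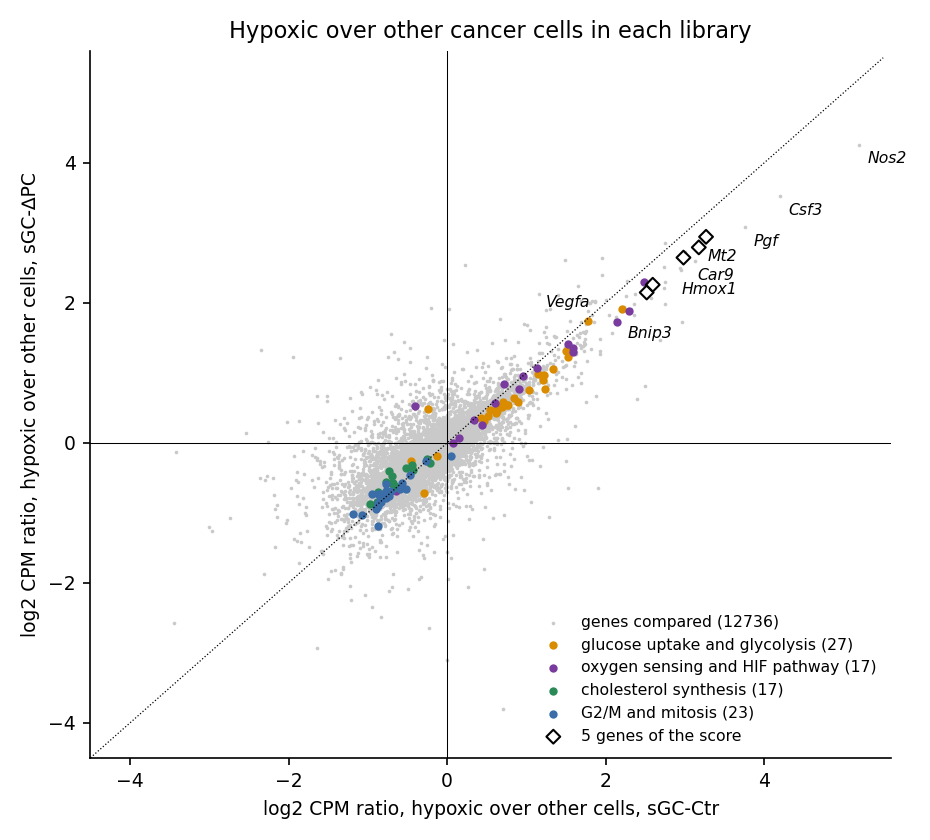
Log2 ratio of hypoxic over other cancer cells for each tested gene, sGC-Ctr on the horizontal and sGC-∆PC on the vertical axis, with the score genes and leading genes marked. Nos2 lies farthest out at 5.20 and 4.26, and most marked genes lie below the diagonal, that is with the larger ratio in sGC-Ctr.

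The lower genes of the ranking, Stard5, Zfp808, S100a2, Klhl33, Klhl32, Etos1, Rgs14, Csta2, Ly6g and Ano3, rested on few molecules. Stard5 had 1 UMI in the hypoxic cells of sGC-Ctr and 2 in those of sGC-∆PC, and S100a2 had 16 and 12. The best counted lower gene, picked after its values were seen, was Nusap1, a protein of the mitotic spindle. It was at 18.6 against 39.4 CPM in sGC-Ctr and at 21.5 against 43.9 CPM in sGC-∆PC.

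The transcripts of glucose breakdown were higher as a group, mostly by less than 2-fold. Of 27 genes of glucose uptake and glycolysis, 5 were at least 2-fold higher in both libraries and 0 lower, beside 1.19% and 0.699% of all genes tested, and 23 lay above 0 in both. The median log2 ratio was 0.75 in sGC-Ctr and 0.54 in sGC-∆PC, beside -0.20 and -0.16 over all genes. Their summed level was 14736 CPM in the hypoxic cells against 8661 CPM in the others of sGC-Ctr, and 13682 against 9327 CPM in sGC-∆PC. Gapdh, a central enzyme of the pathway, was at 5159 against 3037 CPM and at 4904 against 3379 CPM. Ldha, which turns pyruvate into lactate, had log2 ratios of 0.61 and 0.42, and Pgk1, which makes ATP in glycolysis, of 1.21 and 0.90. The 5 genes past 2-fold were Hk2, the hexokinase that traps glucose in the cell, Pfkp and Pfkfb3 of the phosphofructokinase step, and Gys1 and Gbe1, which build glycogen. Pfkfb3 had log2 ratios of 2.20 and 1.91, the highest of the list in both libraries.

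The oxygen sensing genes past 2-fold included brakes of the pathway. Of 17 tested members of the HIF pathway, 7 were at least 2-fold higher in both libraries and 0 lower, beside 1.19% and 0.699% of all genes, with medians of 0.91 and 0.84 beside the all-gene -0.20 and -0.16. They were the prolyl hydroxylases Egln1 and Egln3, the repressors Bhlhe40, Bhlhe41 and Mxi1, the histone demethylase Kdm3a, and Ankrd37. Egln3 was at 202 against 67.1 CPM in sGC-Ctr and at 191 against 74.7 CPM in sGC-∆PC. Hif1a itself, which is mainly controlled at the protein level, was at 119 against 88.1 CPM and at 119 against 101 CPM. Epas1, the gene for the other main HIF alpha subunit, was under 1 CPM in every set, and Egln2 was lower, with log2 ratios of -0.65 and -0.68.

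Bnip3, a receptor for mitophagy whose promoter is printed above, was at 252 against 57.9 CPM in sGC-Ctr and at 218 against 64.5 CPM in sGC-∆PC. Higd1a, a small mitochondrial protein induced by low oxygen, had log2 ratios of 1.92 and 1.49. These were the 2 of 9 genes of mitochondrial adaptation past 2-fold, beside 1.19% of all genes, and 4 of the 9 lay below 0 in both libraries. All 34 nuclear genes of oxidative phosphorylation lay below 0 in both libraries, none by 2-fold. Their medians were -0.30 and -0.25, beside -0.20 and -0.16 over all genes, and -0.10 and -0.096 with ratios centered on those. Ndufa4 was at 303 against 492 CPM and at 304 against 446 CPM. The 18 genes of the TCA cycle had medians of -0.19 and -0.16, close to those over all genes.

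Among 19 tested angiogenic and vasoactive ligands, 5 were at least 2-fold higher in both libraries, beside 1.19% of all genes, and 0 lower, and the medians were 0.17 and 0.39. They included Vegfa, Pgf, Apln and Tgfa. Vegfa, the main growth factor of vessels, was at 53.9 against 13.1 CPM in sGC-Ctr and at 60.9 against 17.2 CPM in sGC-∆PC, while Vegfb was lower at 88.3 against 110 CPM and at 91.3 against 111 CPM. Of 15 tested relatives of adrenomedullin, VEGF and the Ndrg family, 0 were 2-fold higher in both libraries, beside 1.19% of all genes, and 6 lay above 0 in both. Calcrl, which forms the adrenomedullin receptor, was at 9.37 against 8.38 CPM and at 12.5 against 11.2 CPM. Of 10 genes of collagen hydroxylation and crosslinking, only P4ha2, a prolyl hydroxylase of collagen, passed 2-fold, at 69.1 against 11.6 CPM and 54.7 against 13.0 CPM. Car9 was the only 1 of 6 tested genes of pH control past 2-fold, and Vldlr, a lipoprotein receptor, the only 1 of 14 of lipid handling.

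**Figure D3:**
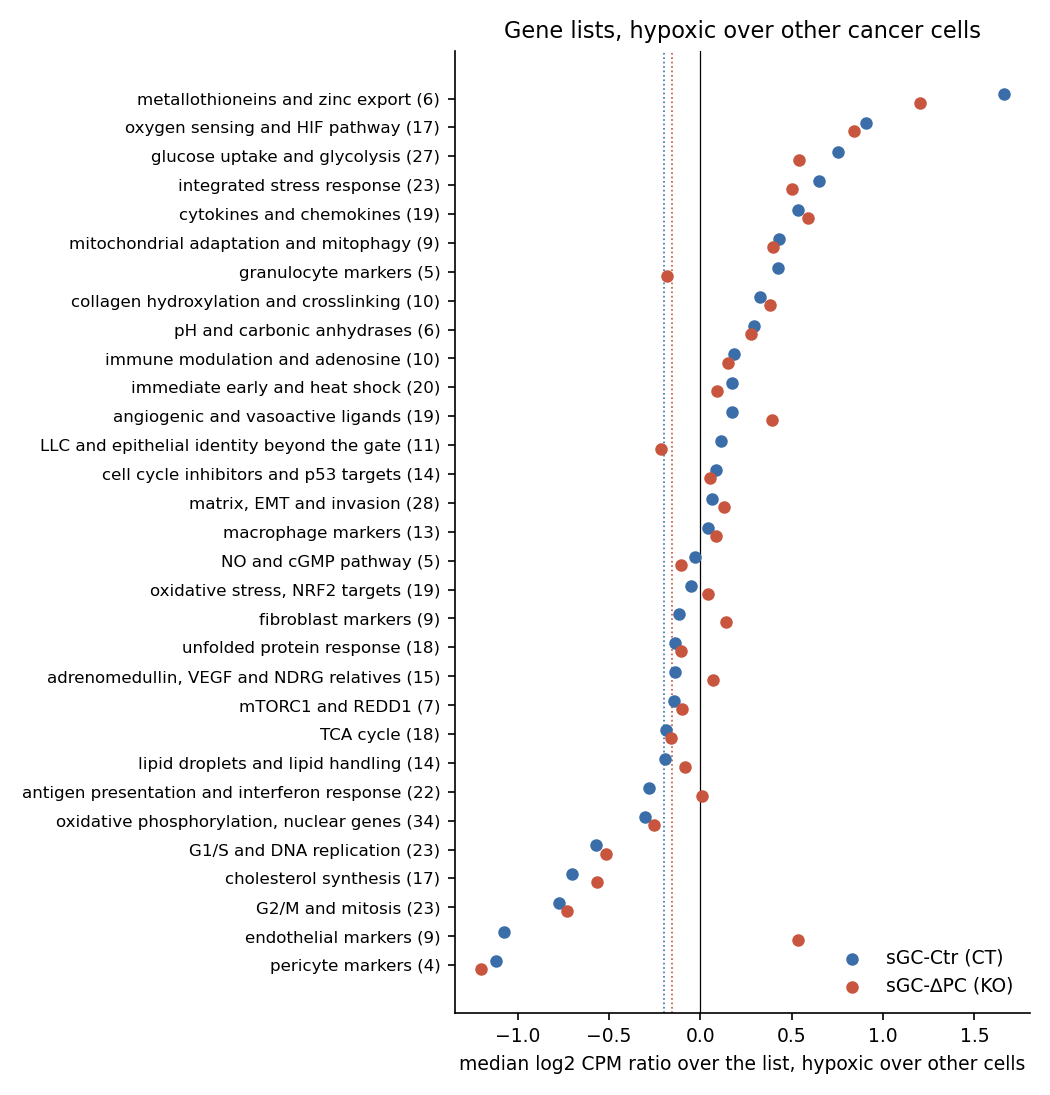
Median log2 ratio of hypoxic over other cancer cells for each gene list, with a point for each library the number of tested genes in brackets and the median over all genes of each library as a dotted line. In sGC-Ctr metallothioneins, HIF pathway and glycolysis lie highest, at 1.66, 0.91 and 0.75 (in sGC-∆PC the cytokines, at 0.59, lie above glycolysis, at 0.54), and G2/M, cholesterol synthesis and G1/S lie in sGC-Ctr at -0.77, -0.70 and -0.57 among the lists of tumor cell programs.

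Cell cycle transcripts were lower. Of 23 genes of mitosis and G2/M, 22 lay below 0 in both libraries and 2, Nusap1 and Plk1, by at least 2-fold, beside 0.699% of all genes. The medians were -0.77 and -0.73, beside -0.20 and -0.16 over all genes, and the exception to the direction was Bub1. Their summed level was 894 against 1412 CPM in sGC-Ctr and 978 against 1527 CPM in sGC-∆PC. Medians over single cells lay closer, at 199 against 243 CPM in sGC-Ctr and at 565 against 753 CPM in sGC-∆PC. Mki67, a proliferation marker, was at 51.2 against 94.0 CPM and at 60.0 against 99.5 CPM. All 23 genes of G1/S and replication lay below 0 in both libraries, with medians of -0.57 and -0.52. Of 14 tested cell cycle inhibitors and p53 targets, Btg1, an antiproliferative gene, was 2-fold higher, at 355 against 150 CPM and at 403 against 194 CPM, and Trp53inp1 was 2-fold lower, with log2 ratios of -1.04 and -1.17. Of the hypoxic cells, 4.22% (2.75 to 6.16%) in sGC-Ctr and 7.25% (5.57 to 9.23%) in sGC-∆PC were also among the top 10% of their library for the G2/M list, a class that holds 10% of all cancer cells.

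All 17 genes of cholesterol synthesis lay below 0 in both libraries, none by 2-fold, with medians of -0.70 and -0.57 beside -0.20 and -0.16 over all genes. Hmgcs1, which makes the precursor of mevalonate, was at 52.3 against 95.7 CPM in sGC-Ctr and at 80.7 against 131 CPM in sGC-∆PC. Idi1, of a later step, had log2 ratios of -0.88 in sGC-Ctr and -0.85 in sGC-∆PC. Insig1, a sensor of sterols, had -0.77 and -0.76.

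Stress programs were unequal. Of 23 tested genes of the integrated stress response, 4 were at least 2-fold higher in both libraries, beside 1.19% of all genes, and 0 lower, namely Vegfa, Atf3, Ddit3 and Aldh1l2, with list medians of 0.65 and 0.50. Ddit3, a transcription factor of this response, was at 28.5 against 9.63 CPM in sGC-Ctr and at 26.0 against 10.7 CPM in sGC-∆PC. The 18 genes of the unfolded protein response had medians of -0.14 and -0.11, with 0 past 2-fold, and Hspa5, its main chaperone, was at 446 against 402 CPM and at 448 against 421 CPM. Ddit4, an inhibitor of mTORC1, was at 138 against 52.3 CPM and at 127 against 54.5 CPM, the only 1 of 7 tested genes of that pathway past 2-fold. Hmox1 was the only 1 of 19 targets of the antioxidant factor NRF2 past 2-fold, and that list had medians of -0.05 and 0.04. Ier3 and Hspb1 passed among 20 immediate early and heat shock genes, Fos and Egr1 did not. Of 6 metallothionein and zinc genes, Mt1, Mt2 and Slc30a1 passed, while Mtf1, the metal-sensing transcription factor, was at 12.1 against 11.7 CPM and at 12.9 against 11.3 CPM.

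Of 19 tested cytokines and chemokines, Cxcl1, Cxcl3, Cxcl5, Csf3, Lif and Il33 were at least 2-fold higher in both libraries and 0 were lower, beside 1.19% and 0.699% of all genes. Cxcl1, which attracts neutrophils, was at 230 against 90.0 CPM in sGC-Ctr and at 289 against 100 CPM in sGC-∆PC. Of 10 tested genes of immune modulation, Ptgs2, Nos2 and Pvr passed, and Ptges, the prostaglandin E synthase that acts after Ptgs2, had log2 ratios of 1.13 and 0.95. Of 22 genes of antigen presentation and interferon response, Isg15, Ifit1 and Ifit3 passed, beside 1.19% of all genes, but the list medians were -0.28 and 0.01. Only 19 hypoxic cells held Ifit3 in sGC-Ctr, where 34 of its 108 UMIs lay in 1 cell, and 36 cells held it in sGC-∆PC. The class I gene H2-D1 was at 272 against 340 CPM and at 378 against 398 CPM. Of 28 matrix and invasion genes only Ccn1 passed, and the calcium-binding S100a6 was lower at 5014 against 7367 CPM and at 4946 against 6828 CPM.

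In the pathway whose receptor gene was deleted in pericytes, the hypoxic cells held transcripts of an enzyme that makes nitric oxide, and none were found of the receptor subunit Gucy1b1. It had 0 UMIs in the hypoxic cells of both libraries and 0.0246 and 0.0199 CPM in the other cancer cells, so it could not serve as a check of the genotype here. Prkg2, a cyclic GMP-dependent kinase, was the other well counted member, at 85.3 against 130 CPM in sGC-Ctr and at 98.2 against 139 CPM in sGC-∆PC. Of 5 tested genes of the pathway only Nos2 passed 2-fold, beside 1.19% of all genes.

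The hypoxic cells with a Nos2 UMI, 96 in sGC-Ctr and 198 in sGC-∆PC, were set beside the 497 and 630 without one. Their median depth was larger, at 59814.5 against 51243 UMIs and at 34989 against 19569.5 UMIs, and so was their median score, at 2685 against 1811 CPM and at 1955 against 1608 CPM. The part of either in the values was not tested. Csf3 was at 41.9 against 5.85 CPM in sGC-Ctr and at 17.9 against 5.18 CPM in sGC-∆PC. Lcn2, an iron-carrying protein of inflamed epithelium, was at 40.9 against 3.39 CPM and at 28.2 against 3.07 CPM. Cxcl1 was at 574 against 155 CPM and at 441 against 218 CPM. Csf3, Lcn2 and Cxcl1 were thus higher in CPM beside Nos2 in both libraries, whereas Hmox1 was higher in sGC-Ctr, at 111 against 54.9 CPM, and lower in sGC-∆PC, at 58.6 against 85.4 CPM. The macrophage gene Lyz2 was at 66.3 against 82.0 CPM and at 213 against 208 CPM, and the cancer gene Rhox5 at 630 against 577 CPM and at 621 against 568 CPM, so neither differed by 2-fold.

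Levels went with the score unevenly when the cancer cells were split into 10 equal bins of the pooled score. Glycolysis went up through the bins, from 7152 CPM in the lowest to 14736 CPM in the highest in sGC-Ctr, and from 7690 to 13682 CPM in sGC-∆PC. Mt1 went from 293 CPM in the lowest bin to 1021 CPM in the 9th and 3315 CPM in the 10th in sGC-Ctr, and from 370 to 1098 and 3050 CPM in sGC-∆PC. Nos2 was at or below 1.28 CPM in the first 9 bins of sGC-Ctr and at 19.97 CPM in the 10th, whereas in sGC-∆PC it was at 7.97 CPM in the 9th bin and 38.8 CPM in the 10th. In the top 1% of the score, 81 cells of sGC-Ctr and 62 of sGC-∆PC, Nos2 was at 85.7 and 168 CPM and Mt1 at 7946 and 7227 CPM. Nos2 was therefore concentrated at the upper end of the score, while glycolysis went up in each bin, with the largest step into the 10th. The G2/M list went the other way, from 1615 to 894 CPM and from 1687 to 978 CPM.

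**Figure D4:**
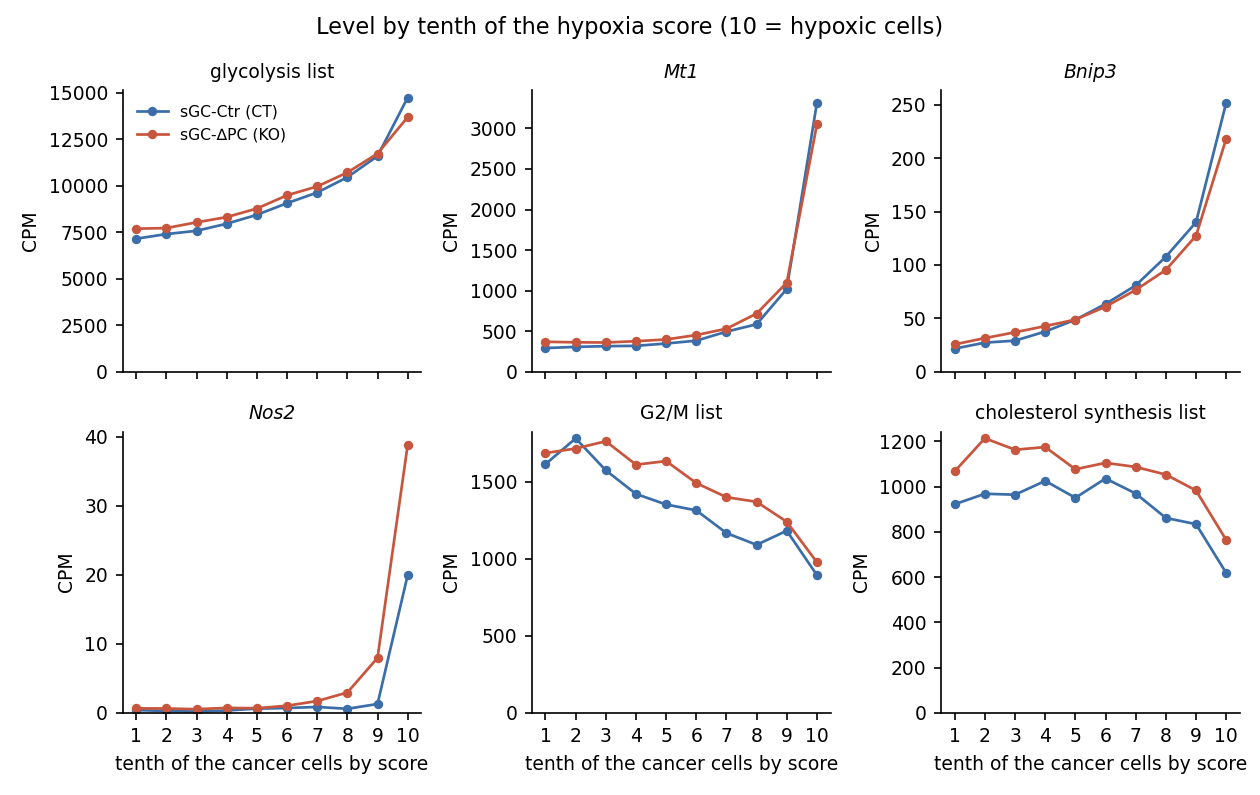
Level (CPM, linear axis from 0 with its own scale in each panel) of genes and gene lists in 10 bins of the pooled 5-gene score, with a line for each library. The 10th bin holds the hypoxic cells. Glycolysis climbs in each bin and most into the 10th, Mt1 and Nos2 climb mostly in the last bins, reaching 3315 and 19.97 CPM in sGC-Ctr, and the G2/M list is lowest in the 10th bin.

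Marker RNA of other cell types was present in the hypoxic cells, that of macrophages at about the level of the other cancer cells and that of pericytes at a lower level. The summed level of 13 macrophage markers was 168 against 166 CPM in sGC-Ctr and 370 against 352 CPM in sGC-∆PC, with Lyz2 the most abundant, and 0 of the 13 markers differed by 2-fold in both libraries. The 5 tested granulocyte markers had medians of 0.42 and -0.18, and their sums were 29.0 against 21.9 CPM and 38.2 against 44.5 CPM. The 9 T and NK cell markers summed to 1.32 and 3.17 CPM in the hypoxic cells. The 9 endothelial markers summed to 28.3 against 40.0 CPM and 46.8 against 47.1 CPM, led by Egfl7, while their median log2 ratios were -1.08 and 0.53. The 8 pericyte markers summed to 3.28 against 7.20 CPM and 6.07 against 10.2 CPM, and 3 of the 4 tested, Rgs5, Cspg4 and Des, were at least 2-fold lower in both libraries, beside 0.699% of all genes. These rested on few molecules, as all 8 markers had 112 UMIs in the hypoxic cells of sGC-Ctr and 165 in those of sGC-∆PC. The 9 fibroblast markers summed to 1290 against 1497 CPM and 1463 against 1694 CPM, most of it Col3a1, a gene that the other cancer cells carried at a like level. The 5 erythroid markers summed to 52.9 against 8.07 CPM in sGC-Ctr and to 0.479 against 0.790 CPM in sGC-∆PC, with most UMIs of Hbb-bs in the hypoxic cells of sGC-Ctr lying in 1 cell.

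Between the libraries the hypoxic cells differed in few genes. Of 10536 genes with at least 100 UMIs over the hypoxic cells of both libraries, 132 (1.25%) were at least 2-fold higher and 8 (0.0759%) at least 2-fold lower in sGC-∆PC, and the median log2 ratio was 0.03. Of the 132 higher genes, 131 were also above 0 in the other cancer cells and 69 of them by at least 2-fold. These values compare 2 libraries, and the genotype cannot be told apart from the library, its depth or its mix of other cells.

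The genes with the largest ratios toward sGC-∆PC included Saa3, Timp3, Ctla2a, Cxcl9, H2-Q7, Tnc, Cd74, Pdpn and Igfbp3. Saa3, an acute-phase protein, was at 1.79 CPM in sGC-Ctr and 27.0 CPM in sGC-∆PC, a log2 ratio of 3.92 (3.54 to 4.32), with 343 of its 733 UMIs in 1 cell. Leaving out the 1% of cells with the most UMIs of the gene in each set, its log2 ratio was 2.19. In the same way Ctla2a, with 81 of its 279 UMIs in 1 cell of sGC-∆PC, went from 3.06 to 1.56, and Igfbp3, with 87 of 245, from 2.18 to 0.98, under 2-fold. H2-Q7, Tnc and Pdpn went up instead, to 3.03, 2.69 and 2.69, but rested on 21, 48 and 43 UMIs in sGC-Ctr. The cells left out held 47.6%, 54.2% and 48.8% of these, against 30.8%, 46.3% and 27.7% of those in sGC-∆PC. The rise therefore follows from the larger loss in sGC-Ctr. For Timp3 all 8 UMIs of sGC-Ctr lay in the cells left out. Its value of 6.81 was therefore set by the 0.5 UMIs added to each count and gives no exact ratio. Cd74, the invariant chain of MHC class II, was at 11.8 and 56.8 CPM, and 334 of its 1544 UMIs were in 1 cell. In the other cancer cells Cd74 was at 11.9 and 37.3 CPM. Timp3, an inhibitor of matrix proteases, rested on 8 and 93 UMIs. These genes are mostly known from immune and stromal cells, and the macrophage marker sum was 168 CPM in sGC-Ctr and 370 CPM in sGC-∆PC. With the immune gate at 100 CPM in place of 300 CPM, 74 genes were at least 2-fold higher in sGC-∆PC instead of 132. Other changes moved this count too, among them to 70 with a mitochondrial share under 5%, 79 for the top 5% of cells and 243 for the top 20%. The source of this RNA was not tested.

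The 8 lower genes included 4 hemoglobin genes and Sprr1a, Zfp469 and G0s2. Hbb-bs was at 29.7 CPM in sGC-Ctr and 0.184 CPM in sGC-∆PC, and 796 of its 1014 UMIs in sGC-Ctr lay in 1 cell. Its log2 ratio was -7.33, and -3.62 in the other cancer cells. Leaving out the 1% of cells richest in it took away all 5 of its UMIs in sGC-∆PC. The value of -6.36 found then was set by the 0.5 UMIs added to each count and gives no exact ratio. Sprr1a, a precursor of the cornified envelope, was at 2.87 and 0.957 CPM, a log2 ratio of -1.58 (-2.27 to -0.95). G0s2, an inhibitor of lipolysis, was at 4.16 and 1.88 CPM, with 41 of its 142 UMIs in 1 cell of sGC-Ctr, and its log2 ratio was -0.04 without the 1% of cells richest in it.

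The cells of both libraries had passed 1 common limit on a hypoxia score, so how close hypoxia genes lay between the libraries is partly set by the rule and is only described. None of the 27 genes of glucose uptake and glycolysis and none of the 16 HIF pathway genes tested in this comparison reached 2-fold between the hypoxic cells of the libraries, with median log2 ratios of -0.09 and -0.04. Vegfa had a log2 ratio of sGC-∆PC over sGC-Ctr of 0.18 (0.08 to 0.27), Pgf of -0.15 (-0.28 to -0.02), Car9 of -0.12 (-0.35 to 0.10) and Mt1 of -0.12 (-0.13 to -0.11). These directions turned in some alternatives, for Vegfa to -0.030 and Pgf to 0.23 as means of single-cell CPM, and for Car9 to 0.056 and Mt1 to 0.029 with a mitochondrial share under 5%. In the other cancer cells the ratios were 0.39, 0.53, 0.35 and 0.31. Of the 10 leading genes Nos2 had the ratio farthest from 0, with 0.96 (0.82 to 1.10) in the hypoxic cells and 1.90 (1.65 to 2.15) in the others, followed by Ciart with 0.47 and Csf3 with -0.42, which turned to 0.17 for the top 5% of cells and 0.057 for a score of mean log2 CPM. Cholesterol synthesis had a median of 0.29 in the hypoxic and 0.17 in the other cells, and G2/M of 0.14 in both.

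Immune-related lists held genes past 2-fold between the libraries, beside 1.25% of all genes tested. Of 20 tested genes of antigen presentation and interferon response, 7 were at least 2-fold higher in the hypoxic cells of sGC-∆PC, with a median of 0.77 in them and 0.44 in the other cancer cells. B2m, the light chain of MHC class I, was at 313 and 451 CPM, and the class II gene H2-Aa at 5.59 and 21.8 CPM. Of 13 macrophage markers, 5 were at least 2-fold higher, with medians of 0.98 and 0.87. Of 18 cytokines and chemokines, 5 were, among them Cxcl5 at 8.46 and 28.9 CPM and Cxcl3 at 4.95 and 13.1 CPM. Of 28 matrix genes 4 were, among them Mmp3, a matrix protease, at 98.9 and 220 CPM in the hypoxic and 93.8 and 198 CPM in the other cells. Of 9 fibroblast markers 3 were, with medians of 0.34 in the hypoxic and 0.31 in the other cells. With single-cell levels averaged without regard to depth 244 genes were higher, and with each cell thinned to 5000 UMIs 44 of 5895 tested.

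**Figure D5:**
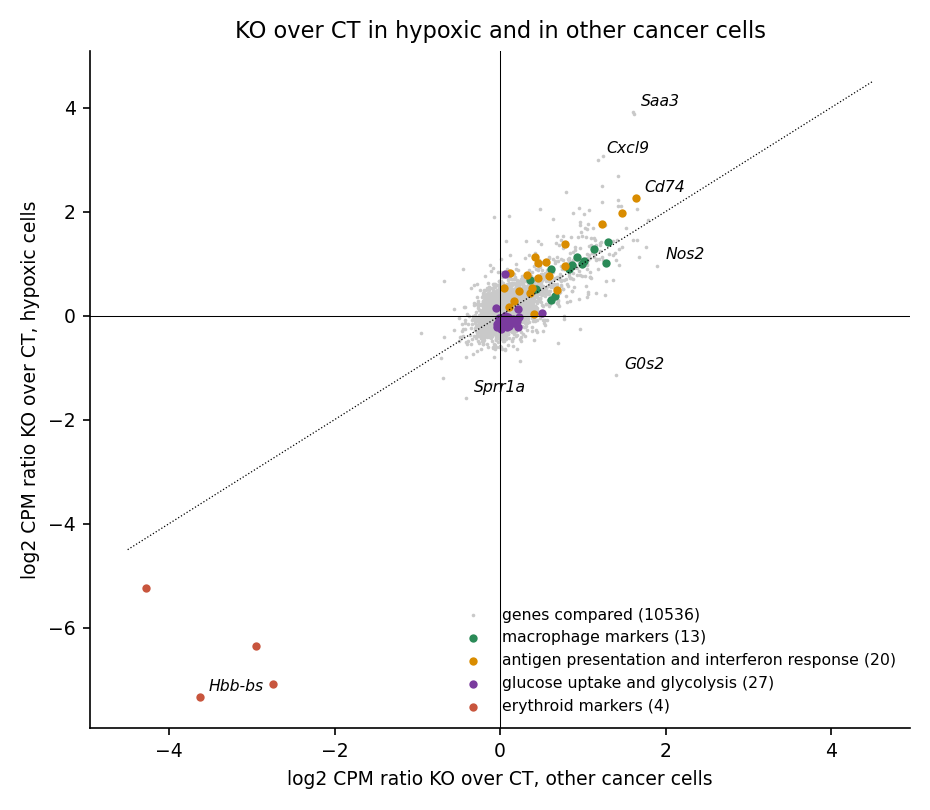
Log2 ratio of sGC-∆PC over sGC-Ctr in the hypoxic cells (vertical axis) and in the other cancer cells (horizontal axis) for each of 10536 tested genes. Most genes lie near 0 on both axes, Saa3 and Cd74 lie up at 3.92 and 2.26 in the hypoxic cells, and the hemoglobin gene Hbb-bs lies farthest down at -7.33.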

How the data were processed

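The authors deposited raw UMI counts per gene and barcode for each library. Per the labels and methods they were made from 10x 3′ reads with Cell Ranger 6.1.1 (submitters' processing notes) on mm10. Counts of 38 duplicated symbols were summed, leaving 32245 symbols. Barcodes were gated by the rule given above, counts summed per set and library, and expressed as CPM. Log2 ratios have exact conditional intervals, CPM Poisson and shares Clopper-Pearson intervals at 95%. PCR was corrected by UMIs, but cells of 1 library are not replicates, so no test was run. T cells were barcodes of at least 1000 UMIs with at least 2 UMIs of Cd3d, Cd3e and Cd3g. A gene outside the score and the gates was tested with at least 100 UMIs, over the cancer cells of each library or over the hypoxic cells of both. Here tested means compared at 2-fold. Genes named were the score genes, the 10 largest ratios each way with a pseudocount of 0.5 UMIs and without unnamed models, and members of 33 lists, by their count of UMIs or their passing 2-fold. Some genes that met these rules are not reported here. Members and lists were chosen with earlier results of these data known. No doublet caller was run, and only the immune gate stood in. The main gates set no upper limit on UMIs, and the cells with the most UMIs in all were left out only in an alternative. Python 3.11.15, numpy 2.4.6, scipy 1.17.1, pandas 2.3.3 and matplotlib 3.10.9 were used, and the ratios were tested on simulated data. The sources used here gave no batch for either library.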

Additional observations from a re-analysis of the deposited data

Results flagged for a closer look

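For 6 genes of the lists, the log2 ratio of hypoxic over other cancer cells pointed in opposite directions in the libraries, by at least 0.5 each way and with counting intervals that left out 0. The difference was not tested, since each condition is 1 library. Among these were 4 of the 9 endothelial markers, with negative ratios in sGC-Ctr and positive ones in sGC-∆PC, and the medians over all 9 were -1.08 and 0.53. Cdh5 had -1.65 and 0.67, Ctla2a -1.09 and 0.72, Emcn -1.52 and 0.67, and Esam -1.52 and 0.59. Cxcl9, a chemokine induced by interferon, had -0.62 and 1.20. G0s2, the lipolysis inhibitor, had 1.90 and -0.64. Without the 1% of cells with the most UMIs of each gene, the ratios were -1.71 and 0.07 for Cdh5, -0.43 and 0.53 for Ctla2a, -0.84 and -0.67 for Emcn, -2.20 and -0.22 for Esam, 0.23 and 0.55 for Cxcl9, and 0.87 and -0.86 for G0s2. Emcn, Esam and Cxcl9 then had 1 sign in both libraries. The sum of all 9 endothelial markers was 28.3 against 40.0 CPM in sGC-Ctr and 46.8 against 47.1 CPM in sGC-∆PC. Cdh5, Emcn and Esam were under 3 CPM in every set.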

How the results depend on the processing

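The 6 main values and counts, 2 shares of cells and 4 counts of genes, were recomputed under those of 19 alternatives that apply to each, of which the omission of the 1% of cells with the most UMIs of each gene was chosen after seeing the data, and 72 of the 102 recomputed values stayed within their tolerance. The causes of the moves were not tested. The share of cancer cells chosen in sGC-Ctr and sGC-∆PC was 5.45% and 4.65% for the top 5%, 17.9% and 21.6% for the top 20%, 11.3% and 11.8% for a score on thinned cells (1647 cells, ties at the limit included), and 10.5% and 9.51% with a mitochondrial share under 5%. Genes 2-fold higher in the hypoxic cells numbered 84 for the top 20% and 1104 with at least 1 UMI per gene. Genes 2-fold lower numbered 476 for the top 5%, 8 for the top 20%, 24 for the thinned score, 168 with a mitochondrial share under 5%, 264 with at least 1 UMI, 35 with centered ratios and 324 without the 1% of cells. Genes higher in the hypoxic cells of sGC-∆PC than of sGC-Ctr numbered 79 for the top 5%, 243 for the top 20%, 70 with a mitochondrial share under 5%, 74 with the immune gate at 100 CPM, 244 as a mean of single-cell CPM, 2522 with at least 1 UMI and 44 with thinned cells. Genes lower numbered 3 for the top 5%, 5 without the 5% of cells with the most UMIs, 5 without Ero1l in the score, 15 as a mean of single-cell CPM, 1271 with at least 1 UMI and 0 with thinned cells. For single genes and lists, 10 of 900 values turned from a ratio whose counting interval left out 0, all of them between the libraries: Csf3 to 0.17 (top 5%) and 0.057 (mean of log2 CPM), Pgf to 0.0076 (top 5%), 0.011 (mitochondrial share under 5%) and 0.23 (mean of single-cell CPM), Mki67 to -0.074 (top 5%), Mt1 to 0.029 and Mt2 to 0.10 (mitochondrial share under 5%), Vegfa to -0.030 (mean of single-cell CPM) and Hmox1 to -0.030 (without the 1% of cells). Ratios whose interval held 0 were not counted among these, and those of Bhlhe40 and Car9 also turned, to 0.12 and 0.056 with a mitochondrial share under 5%, and that of Bhlhe40 for the top 5% and with the immune gate at 100 CPM as well. The ratio of hypoxic over other cells kept its sign under every alternative run on it for Nos2 (4.32 to 5.85 in sGC-Ctr and 3.75 to 4.64 in sGC-∆PC), Mt1 (2.58 to 3.28 and 2.13 to 2.79) and the cholesterol list (-1.05 to -0.48 and -0.98 to -0.34). No paired analysis was possible because each condition has 1 library. The genes lower in the hypoxic cells had a median of 29 UMIs there, which limits the precision of their ratios.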
